A study of Mus musculus with 20 samples.

Results

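This account covers 33 genes of sterol and fatty acid synthesis in the kidneys of mice with and without telomerase, out of 19940 genes in the table. The members were taken from a list of genes regulated by the sterol regulatory element-binding proteins (SREBPs), and all 33 were in the table and were tested. The list was not cut by measured values, but the higher level of Scd2 in old telomerase-deficient kidneys was known when it was drawn up. Whole-kidney polyadenylated RNA of 20 male mice was sequenced from the 3′ end (QuantSeq), with 1 library per mouse and 5 mice in each of 4 groups. The groups were Tert+/+ mice aged 7 weeks, Tert-/- mice of the third generation without telomerase (G3 Tert-/-) aged 7 weeks, Tert+/+ mice aged 47 weeks, and G3 Tert-/- mice aged 47 weeks. Telomerase needs the catalytic protein encoded by Tert, and G3 mice are bred for several generations without it, which shortens telomeres. No treatment is given in the labels for any of these groups, and no earlier generation of Tert-/- mice was analysed here, so loss of Tert and what builds up over generations cannot be told apart. The mice aged 7 weeks are called young and those aged 47 weeks old. Values are the deposited normalized read counts, given per library in the order of the replicates 1 to 5 or as mean ± SD over 5 mice. Since reads come from one end of each transcript and are not set against length, levels are compared between groups and not between genes.

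Cells make cholesterol from acetyl-CoA through mevalonate, squalene and lanosterol, and fatty acids from acetyl-CoA through malonyl-CoA. SREBP-2, encoded by Srebf2, mainly drives the sterol genes, and SREBP-1, encoded by Srebf1, mainly the fatty acid genes. Both are held in the endoplasmic reticulum by Insig proteins and are escorted by Scap to the Golgi, where they are cut into active transcription factors when sterols are low. In the kidney these genes serve the membranes of tubule cells, and in adipocytes and liver the fatty acid branch also supplies stored fat.

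Promoter sequences of 3 members are shown because factors of this family act together with NF-Y and Sp1. They are Hmgcs1, an early mevalonate enzyme, Cyp51, the member that changed with age in G3 Tert-/- kidneys, and Fasn, the fatty acid synthase. Each run is the 250 bases before the RefSeq start, 5′ to 3′ in the direction of transcription, on GRCm38. Capitals mark matches on either strand to a sterol regulatory element (TCACNCCAC), an NF-Y box (CCAAT) or an Sp1 box (GGGCGG).
Hmgcs1, chr13:119690101-119690350, plus strand: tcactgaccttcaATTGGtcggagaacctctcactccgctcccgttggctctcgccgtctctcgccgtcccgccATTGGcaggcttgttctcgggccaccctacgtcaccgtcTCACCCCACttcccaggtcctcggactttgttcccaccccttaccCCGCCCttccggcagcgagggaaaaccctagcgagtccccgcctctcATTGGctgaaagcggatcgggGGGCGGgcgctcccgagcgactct
Cyp51, chr5:4104698-4104947, minus strand: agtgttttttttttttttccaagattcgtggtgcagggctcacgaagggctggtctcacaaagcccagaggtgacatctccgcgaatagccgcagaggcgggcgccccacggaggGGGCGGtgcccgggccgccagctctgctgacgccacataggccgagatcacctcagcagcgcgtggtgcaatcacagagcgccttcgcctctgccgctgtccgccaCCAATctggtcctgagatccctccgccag
Fasn, chr11:120824548-120824797, minus strand: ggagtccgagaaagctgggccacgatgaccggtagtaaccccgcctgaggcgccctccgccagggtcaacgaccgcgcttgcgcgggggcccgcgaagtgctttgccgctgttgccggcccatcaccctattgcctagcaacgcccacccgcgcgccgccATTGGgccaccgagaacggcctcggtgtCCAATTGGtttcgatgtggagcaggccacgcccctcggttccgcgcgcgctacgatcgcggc
The capitals TCACCCCAC in Hmgcs1 begin at position -137, counted back from the first transcribed base. In Fasn, 2 overlapping matches to the NF-Y box on opposite strands form the run CCAATTGG. RefSeq windows from 250 bases before to 50 after a start matched 26 of the 33 members, and Scd1 and Scd2 were not among them. The NF-Y box was present in a window of 21 of these 26 members (80.8%), against 41.1% of all 27025 genes with windows. The Sp1 box was likewise present in 21 of the 26, against 38.2% of all genes. The strict sterol element was found in 1 member, Hmgcs1 (3.85%), against 1.44% of all genes. A match is a run of letters and not a shown binding site.

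Libraries held 7161690 to 9757594 reads. Tert itself was low everywhere, at 4.21 to 15.7 in young and 7.25 to 16.9 in old Tert+/+ kidneys, and at 0.979 to 5.65 in young and 5.11 to 8.31 in old G3 Tert-/- kidneys. The sources used here do not say which part of Tert was deleted, and a 3′ tag outside it would check nothing. Kidney markers were high in every library, with Slc34a1 at 19405 to 41220 and Lrp2 at 4890 to 8233 normalized counts. 2 libraries stood apart, Tert+/+ young replicate 1 and Tert+/+ old replicate 4, whose genes departed from the gene medians with an SD of 0.598 and 0.476 on the log2 scale, against 0.165 to 0.382 in the other 18. Transcripts of other tissues were also spread unevenly. The adrenal gene Star was 460.2 in Tert+/+ young replicate 5 and at most 20.8 elsewhere. Star was the 1 of 5 listed adrenal markers found in the table, so adrenal tissue is read from this gene alone. The liver genes Alb and Apoa1 were 462 and 260.1 in Tert+/+ old replicate 4, their highest values in any library. The 6 listed liver markers, these among them, set it less apart. They summed to 2404 there and to 2131 in G3 Tert-/- young replicate 2. In whole tissue, fewer cells of a type and less RNA per cell cannot be told apart.

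In old kidneys, G3 Tert-/- mice had 2.06-fold more Scd2 than Tert+/+ mice, and no other member passed. With age, Cyp51 fell in G3 Tert-/- kidneys, and in Tert+/+ kidneys no member passed although 32 of 33 had a lower mean log2 level in old mice. Differences were tested with limma on log2(normalized count + 1) over all 14630 genes that reached 10 normalized counts in at least 5 libraries, and an adjusted p under 0.05 passed. At 47 weeks 1 of 33 members passed for genotype, against 0.0957% of all tested genes (0.0137% higher and 0.082% lower). This member, Scd2, was known to be higher there when the list was drawn up. The count is therefore no test of the list. The members' log2 fold changes were positive for 23 of 33, with a median of 0.20, against 52.1% positive and a median of 0.010 over all tested genes. Unadjusted p (limma) was under 0.05 for 7 members (21.2%), Scd2 among them, against 6.58% of all tested genes. At 7 weeks no member passed in limma, against 0% of all tested genes, and none passed in edgeR or DESeq2. There, 2 members (6.06%) had an unadjusted p under 0.05, against 10.7% of all tested genes. Log2 fold changes were positive for 20 of 33 members, with a median of 0.035, against 50.2% and a median of 0.0013 over all tested genes. The genotype comparisons at the 2 ages use different mice.

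**Figure D1:**
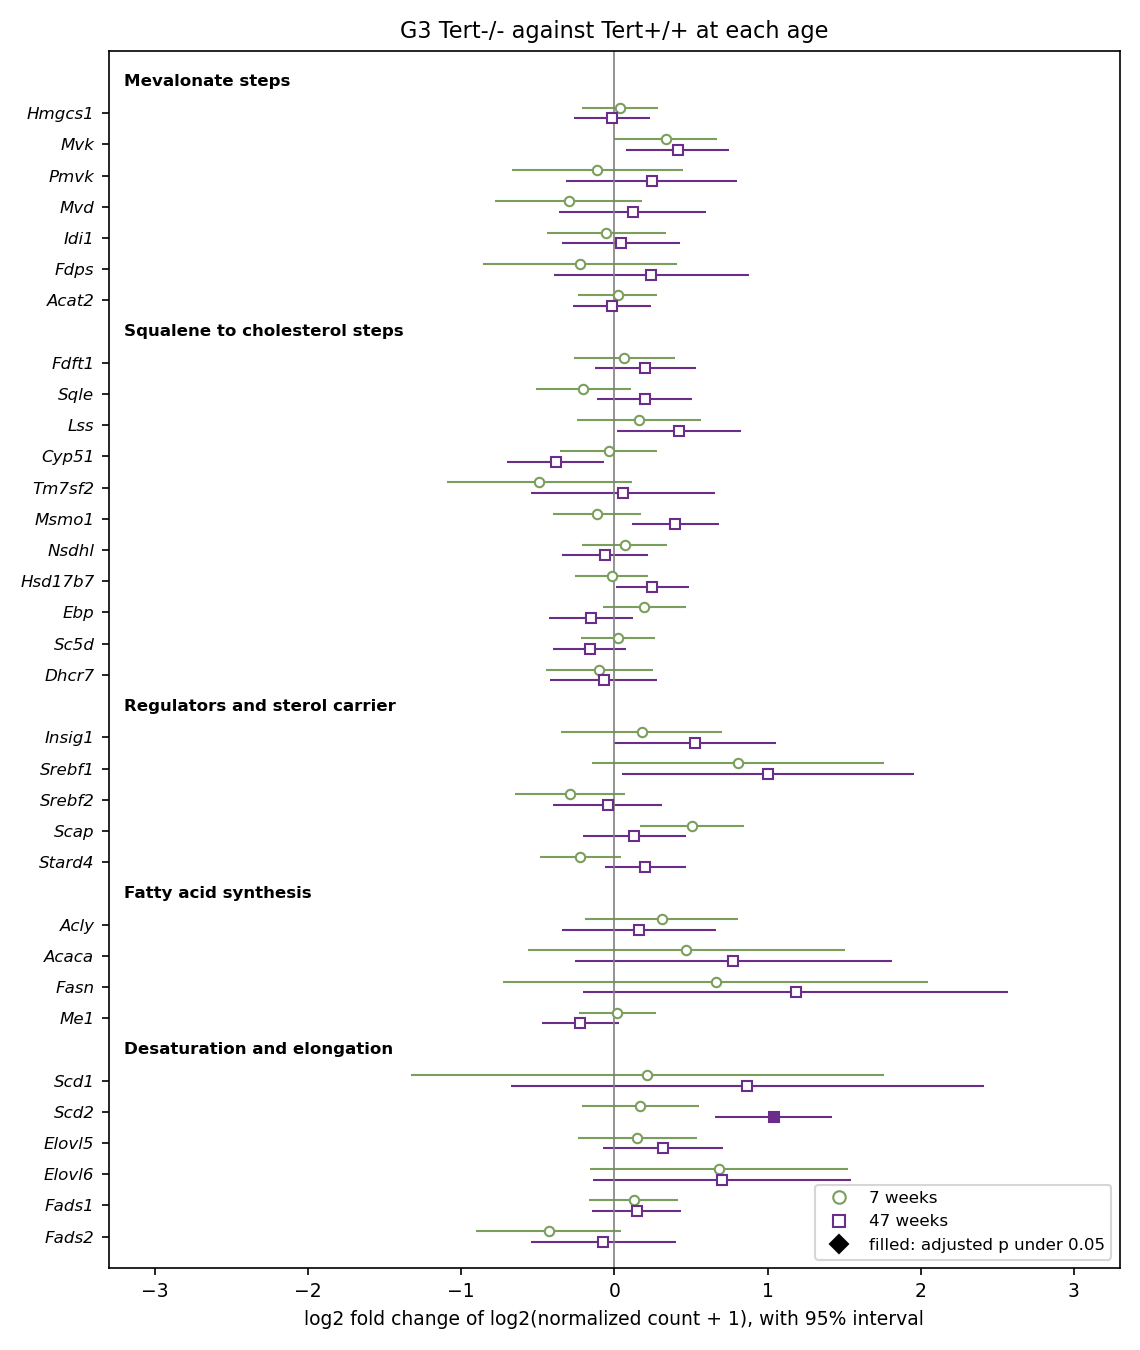
Log2 fold change (x axis, log2 of normalized count + 1) of G3 Tert-/- against Tert+/+ kidneys for each member, with the 95% interval from limma, at 7 weeks (circles) and 47 weeks (squares), grouped by role. Scd2 at 47 weeks, at 1.04, is the 1 filled symbol that passed, and the intervals of Fasn and Scd1 are several times wider than those of the sterol genes.

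For age in Tert+/+ mice no member passed in limma, against 0.649% of all tested genes, and none passed in edgeR or DESeq2, while 7 (21.2%) had an unadjusted p under 0.05, against 10.6% of all tested genes. The median log2 fold change of old against young was -0.27 over the members and 0.0036 over all tested genes, of which 49.3% were negative. Mvk, mevalonate kinase, was the 1 member with a positive value, 0.03 (SE 0.16). Without both libraries that stood apart, 31 of 33 members were negative, with a median of -0.20. Without Tert+/+ young replicate 5, Cyp51 passed in this comparison too (log2 fold change -0.61, adjusted p = 0.0363). For age in G3 Tert-/- mice 1 of 33 members (3.03%) passed, against 2.24% of all tested genes (0.93% higher and 1.31% lower), a share near the background. Here 22 of 33 members were negative, with a median of -0.15, against 49.5% and a median of 0.0031 over all tested genes. An unadjusted p under 0.05 (limma) was found for 8 members (24.2%), against 14.9% of all tested genes. By group mean, Tert+/+ old kidneys were lowest of the 4 groups for 20 members and highest for none. The comparisons at 47 weeks and with age in Tert+/+ mice share this group, so their values are not independent.

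**Figure D2:**
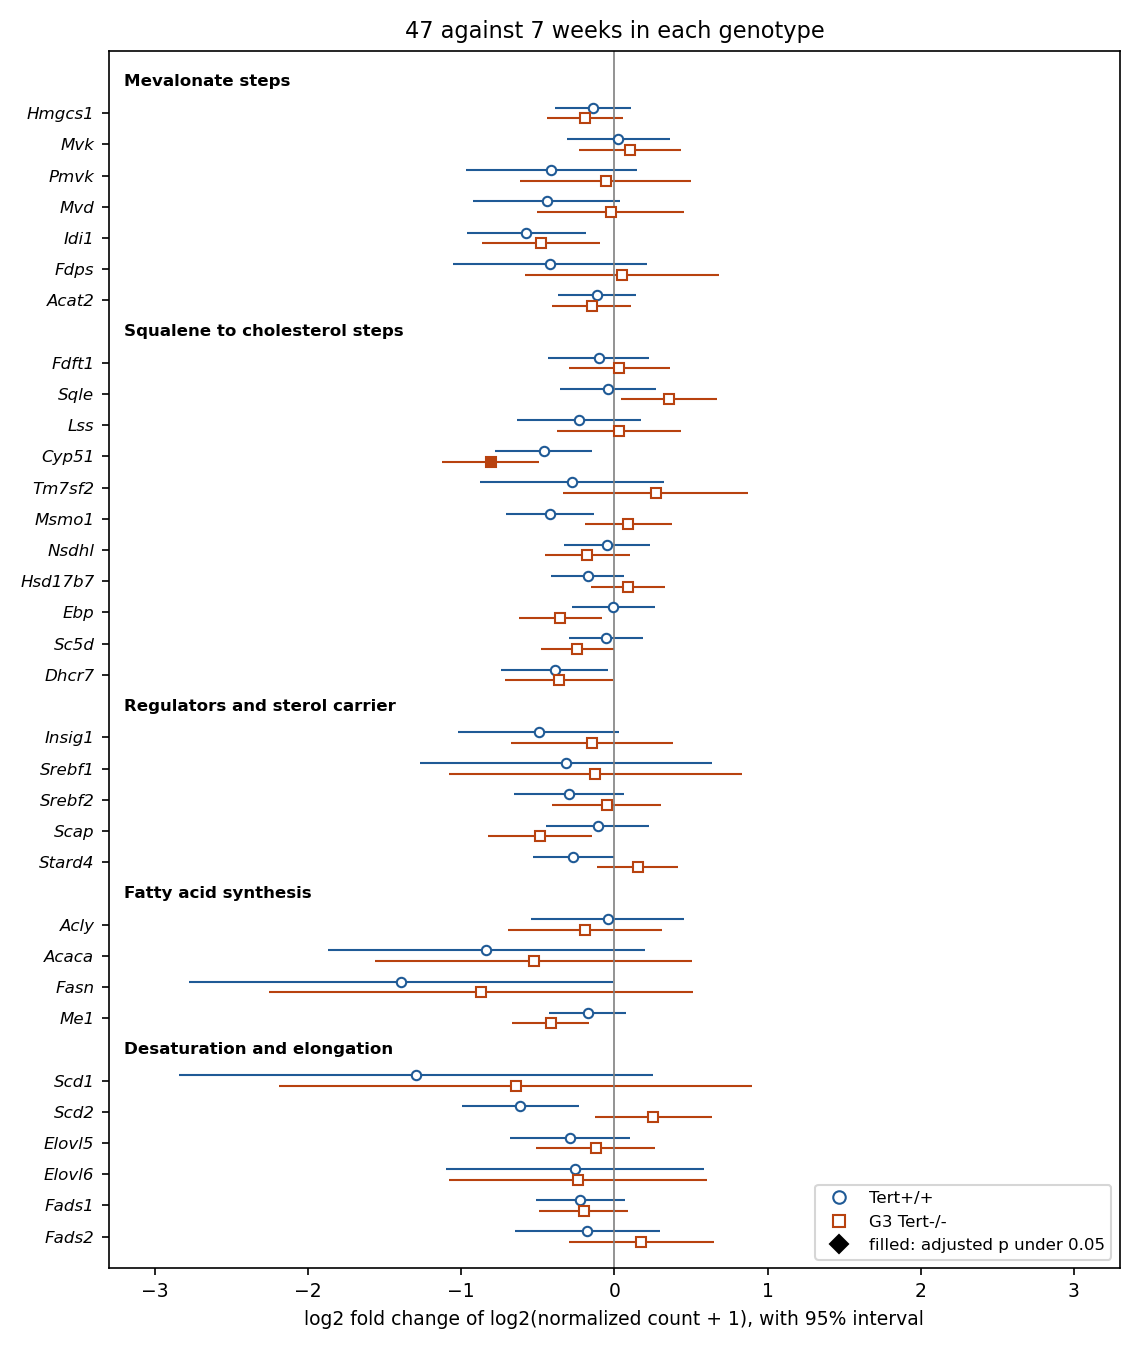
Log2 fold change (x axis, log2 of normalized count + 1) of old against young kidneys for each member, with the 95% interval from limma, in Tert+/+ (circles) and G3 Tert-/- mice (squares), grouped by role. The Tert+/+ values lie left of 0 for 32 of 33 members, and Cyp51 in G3 Tert-/- mice, at -0.81, is the 1 filled symbol that passed.

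Whether genotype differences changed with age was tested as an interaction (the older difference less the younger one), which passed for no member in limma, edgeR or DESeq2, against 0.00684% of all tested genes in limma. Unadjusted p was under 0.05 for 3 members (9.09%), Scd2, Msmo1 and Stard4, against 6.22% of all tested genes. The value of Scd2 was 0.87 (SE 0.26) with an interval of 0.33 to 1.41 and adjusted p = 0.743 (limma). A different effect of genotype at the 2 ages is therefore not shown for any member.

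Complete separation of the groups was read as a second description. At 47 weeks, Scd2 and Hsd17b7 were higher in every G3 Tert-/- library than in any Tert+/+ library, which held for 0.875% of all tested genes, and no member was lower in this way, against 1.44%. The higher level of Scd2 was known when the list was drawn up. At 7 weeks no member separated the genotypes, against 0.602% of genes higher and 0.8% lower. With age in Tert+/+ mice Scd2 was lower without overlap, against 1.25% of genes, and none was higher, against 1.28%. In G3 Tert-/- mice Cyp51 and Ebp were lower with age without overlap, against 2.66% of genes, and none was higher, against 1.94%.

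Among the 7 genes of the mevalonate steps none passed in any comparison. They lead from acetyl-CoA to farnesyl pyrophosphate: Acat2 joins acetyl-CoA units, Hmgcs1 makes HMG-CoA, Mvk, Pmvk and Mvd phosphorylate and decarboxylate mevalonate, and Idi1 and Fdps build the isoprenoid chain. Hmgcs1 was 4089.7 ± 569.7 in young and 3681 ± 185 in old Tert+/+ kidneys, with age effects of -0.14 (SE 0.12) in these mice and -0.19 (SE 0.12) in G3 Tert-/- mice (adjusted p = 0.718 and 0.478). Idi1, picked out after its values were seen, had the lowest unadjusted p of these genes with age. It was 170.2, 143, 286, 223 and 253 in young Tert+/+ kidneys and 162, 127, 139, 106 and 175 in old ones. In G3 Tert-/- kidneys it was 182, 178, 215, 207 and 227 in young and 198, 140.2, 149, 152 and 98.0 in old mice. In Tert+/+ mice 2 young kidneys lay within the range of the old ones, and in G3 Tert-/- mice 1 old kidney lay within the range of the young ones. The log2 fold changes were -0.57 (SE 0.19) in Tert+/+ and -0.48 (SE 0.19) in G3 Tert-/- mice, with adjusted p = 0.202 and 0.208.

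Mvk was higher by mean in G3 Tert-/- kidneys at both ages without passing. Its means were 58.4 ± 13.9 in Tert+/+ and 73.0 ± 8.43 in G3 Tert-/- kidneys at 7 weeks, and 58.9 ± 9.62 and 78.7 ± 12.2 at 47 weeks. The log2 fold changes were 0.34 (SE 0.16) and 0.41 (SE 0.16), with adjusted p = 0.468 and 0.653. Young Tert+/+ mice had Mvd at 511 ± 86.7 and young G3 Tert-/- mice at 427 ± 135 (-0.30 on the log2 scale, SE 0.23, adjusted p = 0.613). Pmvk and Fdps had their highest values, 188 and 128, in Tert+/+ young replicate 1, 1 of the 2 libraries that stood apart. Acat2 ranged from 438 to 744 over all 20 libraries. Reads of Fdps could be shared with the overlapping gene Gm43738 on the same strand.

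Of the 11 genes from squalene to cholesterol, Cyp51 passed, falling with age in G3 Tert-/- kidneys. Cyp51 (chromosome 5, 4081145 to 4104746, minus strand) encodes the lanosterol demethylase, whose promoter is printed above. At 7 weeks it was 1695, 2616, 2220.3, 2124 and 1268 in Tert+/+ and 2180.1, 1990.4, 1808, 1807 and 1637 in G3 Tert-/- kidneys. The 47-week values were 1195, 1513, 1368, 1678 and 1286 for Tert+/+ and 915, 1254, 986, 1257 and 990.1 for G3 Tert-/-. All 5 old G3 Tert-/- kidneys lay below all 5 young ones, whereas in Tert+/+ mice replicate 5 of the young group fell among the old. The fall in G3 Tert-/- mice was -0.81 (SE 0.15) on the log2 scale, or 1.75-fold (adjusted p = 0.00451). It passed in all 9 other settings that used every library or left out several by rule (adjusted p from 0.000108 to 0.00689) and whichever library was left out (0.000619 to 0.0178). In Tert+/+ mice the value was -0.46 (SE 0.15), adjusted p = 0.215, and the difference between the 2 age effects was -0.35 (SE 0.22), adjusted p = 0.826, so a larger fall in G3 Tert-/- mice is not shown. For genotype Cyp51 was -0.04 at 7 weeks and -0.38 at 47 weeks, the lowest value of any member there (adjusted p = 0.653). Among proximal tubule markers, Slc22a6 also fell with age in G3 Tert-/- kidneys (-0.69 on the log2 scale, SE 0.18, adjusted p = 0.0399), while the other 4 did not pass, 3 of the 5 were positive and their median was 0.0087. The summed level of the 5 markers, none at 0, was 36065 to 44445 in young and 31299 to 36966 in old G3 Tert-/- mice. Both markers of the thick ascending limb (Umod and Slc12a1), neither at 0 in any library, were positive without passing (0.30 and 0.82, adjusted p = 0.630 and 0.0709), with a sum of 11388 to 19713 in young and 16395 to 24895 in old G3 Tert-/- mice. The part of these tubule markers in the fall of Cyp51 was not tested.

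**Figure D3:**
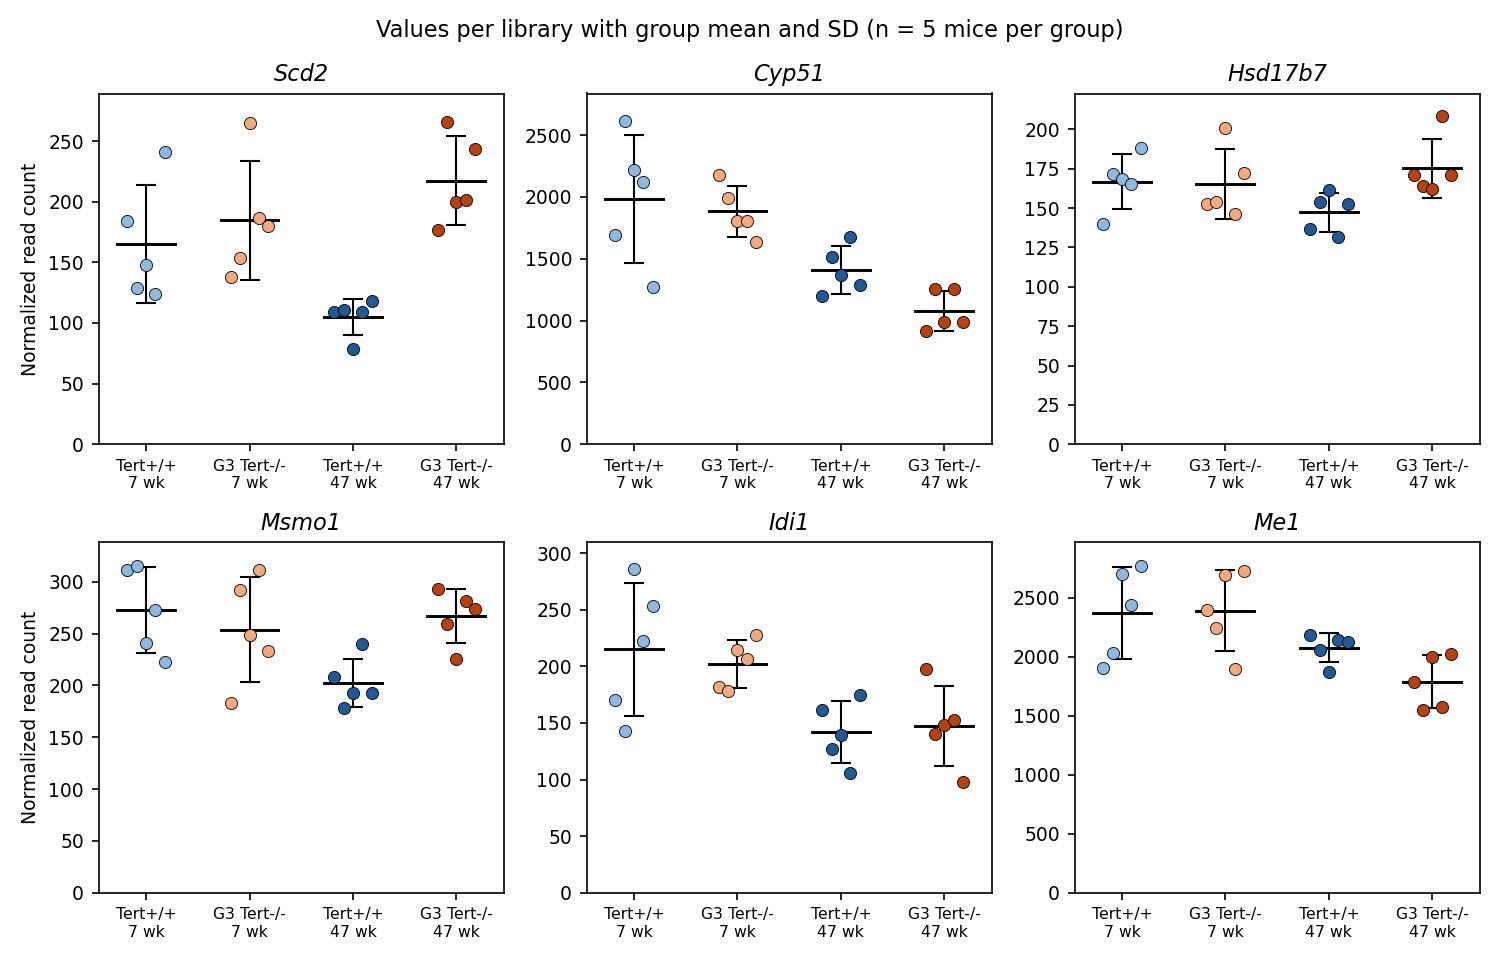
Normalized read count (y axis, from 0) of 6 members in each of the 20 libraries, with the group mean as a bar and the SD as whiskers (n = 5 mice per group). Old G3 Tert-/- values of Cyp51 lie at 915 to 1257, below all young values, and old Tert+/+ values of Scd2 lie at 78.9 to 118, below all values of the other groups.

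Several neighbours of Cyp51 in the pathway had lower means in old than in young Tert+/+ kidneys without passing. Msmo1, the methylsterol oxidase that acts after Cyp51, was 272 ± 41.5 in young and 202 ± 23.5 in old Tert+/+ kidneys (-0.42 on the log2 scale, SE 0.14, adjusted p = 0.205). In old G3 Tert-/- kidneys it was 267 ± 26.1, and the genotype difference at 47 weeks was 0.40 (SE 0.14), adjusted p = 0.556. Dhcr7, which makes the last step to cholesterol, was 72.6 ± 6.74 in young and 56.2 ± 12.6 in old Tert+/+ kidneys. It stood at 68.5 ± 13.5 in young and 53.0 ± 8.90 in old G3 Tert-/- mice. Its age effects were -0.39 and -0.36, with adjusted p = 0.396 and 0.310.

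Ebp, the sterol isomerase, was 911, 1124, 897, 1064 and 915 in young and 845, 819.7, 793, 652 and 731 in old G3 Tert-/- kidneys. The groups did not overlap, but the difference of -0.35 (SE 0.13) had an adjusted p of 0.187, and it passed without both libraries that stood apart (adjusted p = 0.0348). Both are Tert+/+ and enter this comparison only through the spread shared by all 4 groups. The genotype differences of Ebp and Sc5d, a sterol desaturase, were -0.15 and -0.16 at 47 weeks, among the 4 lowest members, with adjusted p = 0.877 and 0.854. Hsd17b7, a sterol ketone reductase, was 137, 154, 162, 132 and 152 in old Tert+/+ and 171, 164, 162, 208 and 171 in old G3 Tert-/- kidneys. The lowest G3 Tert-/- value, 162.0, lay just above the highest Tert+/+ value, 161.6, and the difference of 0.25 (SE 0.12) did not pass (adjusted p = 0.753).

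Sqle, the squalene epoxidase, had the highest age effect of any member in G3 Tert-/- kidneys, from 209 ± 19 to 269 ± 33.7 (0.36 on the log2 scale, SE 0.15, adjusted p = 0.255). In Tert+/+ kidneys it was 247 ± 63.1 and 235 ± 29.1. Tm7sf2, a sterol reductase, had the lowest genotype value of any member at 7 weeks, -0.49 (SE 0.29), adjusted p = 0.516, and an age effect of 0.27 in G3 Tert-/- mice (adjusted p = 0.731). Its counts were low, at 8.30 to 24.3, and it overlaps Vps51 on the same strand, so its reads are uncertain. Lss, which closes the sterol ring, stood at 37.1 ± 7.17 in old Tert+/+ mice and 50.1 ± 10.4 in old G3 Tert-/- mice (0.42 on the log2 scale, SE 0.20, adjusted p = 0.753). Fdft1, the squalene synthase, and Nsdhl, a demethylating dehydrogenase, had log2 fold changes between -0.18 and 0.20 in the 4 comparisons.

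None of the 5 regulators and sterol carriers passed in any comparison. Srebf2 was 631, 343, 265, 347 and 283 in young Tert+/+ and 263, 328, 233, 327 and 313 in young G3 Tert-/- kidneys. Among old mice, those of Tert+/+ were 292, 259, 309, 339 and 254 and those of G3 Tert-/- 296, 272, 235, 319 and 286. The groups overlapped throughout, apart from replicate 1 of young Tert+/+, which stood above all others. Its genotype value was -0.29 (SE 0.17) at 7 weeks (adjusted p = 0.516), or -0.08 without both libraries that stood apart, and -0.04 (SE 0.17) at 47 weeks (adjusted p = 0.978). With age it was -0.30 (SE 0.17) in Tert+/+ and -0.05 (SE 0.17) in G3 Tert-/- mice, with adjusted p = 0.564 and 0.931.

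Srebf1 counts were low and scattered. They were 18.7, 10.6, 26.4, 13.9 and 37.9 in young Tert+/+ and 30.0, 22.5, 62.2, 59.8 and 20.4 in young G3 Tert-/- kidneys. Old Tert+/+ mice had 23.8, 26.6, 15.6, 3.38 and 23.4, and old G3 Tert-/- mice 62.3, 44.0, 18.7, 27.6 and 23.2. At 7 weeks 2 and at 47 weeks 3 of 5 G3 Tert-/- libraries lay above all Tert+/+ libraries of that age. The lowest value, 3.38 or 3 reads, came from Tert+/+ old replicate 4, which stood apart. The genotype values were 0.81 (SE 0.46) at 7 weeks, the highest of any member, and 1.0 (SE 0.46) at 47 weeks, with adjusted p = 0.500 and 0.746. With age the values were -0.32 (SE 0.46) in Tert+/+ and -0.12 (SE 0.46) in G3 Tert-/- mice, with adjusted p = 0.857 and 0.939. The value at 47 weeks was 0.52 without Tert+/+ old replicate 4.

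Scap, the escort of SREBPs, was 173, 277, 338, 276 and 259 in young Tert+/+ and 406, 361, 361, 410.2 and 312 in young G3 Tert-/- kidneys. The 47-week values were 267, 272, 245, 171 and 260.4 for Tert+/+ and 346, 283, 258, 225 and 219 for G3 Tert-/-. The young G3 Tert-/- kidneys were the highest group, and their replicate 5 alone lay below the highest young Tert+/+ value. The genotype value at 7 weeks was 0.51 (SE 0.16), with the smallest p of any member there (0.00499) but an adjusted p of 0.435, and 0.13 (SE 0.16) at 47 weeks (adjusted p = 0.917). Without both libraries that stood apart these values were 0.36 and 0.008. With age the value of Scap was -0.49 (SE 0.16) in G3 Tert-/- mice (adjusted p = 0.136), which passed without both libraries that stood apart (adjusted p = 0.0174), and -0.11 (SE 0.16) in Tert+/+ mice (adjusted p = 0.861). Both left-out libraries are Tert+/+ and enter the G3 Tert-/- comparison only through the spread shared by all 4 groups.

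Insig1, the retention factor and itself an SREBP target, was 187, 65.6, 53.8, 66.5 and 89.2 in young Tert+/+ and 70.9, 82.2, 110.2, 129.5 and 87.9 in young G3 Tert-/- kidneys. Among old mice, those of Tert+/+ were 70.5, 65.0, 64.3, 40.5 and 57.9 and those of G3 Tert-/- 109, 97.2, 67.5, 87.8 and 69.7. At 47 weeks 3 of the 5 G3 Tert-/- libraries lay above all Tert+/+ libraries, and in the young Tert+/+ group replicate 1 stood far above the rest. The genotype values were 0.18 (SE 0.25) at 7 weeks and 0.52 (SE 0.25) at 47 weeks, with adjusted p = 0.806 and 0.760. With age the values were -0.49 (SE 0.25) and -0.15 (SE 0.25) in Tert+/+ and G3 Tert-/- mice, with adjusted p = 0.502 and 0.847. The former was -0.07 without both libraries that stood apart. Stard4, a carrier that moves sterols between membranes, ranged from 299 to 531 and had an age effect of -0.27 in Tert+/+ and 0.15 in G3 Tert-/- mice (adjusted p = 0.456 and 0.633).

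None of the 4 genes of fatty acid synthesis proper passed in any comparison, and Fasn and Acaca varied widely between mice of 1 group. Acly makes cytosolic acetyl-CoA from citrate, Acaca makes malonyl-CoA, Fasn (chromosome 11, 120805846 to 120824547, minus strand) builds palmitate, and Me1 supplies NADPH. Fasn was 713, 648, 400.0, 1071 and 2959 in young Tert+/+ and 379, 680.1, 7279, 1486 and 2078 in young G3 Tert-/- kidneys. Old Tert+/+ mice had 256, 292, 294, 526 and 404, and old G3 Tert-/- mice 1194, 321, 463, 392 and 4061. In 3 groups a single mouse held several times the level of most others, and the old Tert+/+ group had no such mouse. The within-group SD of Fasn was 1.26 on the log2 scale, larger than that of 99.5% of tested genes, against a median of 0.295 over the members and 0.302 over all tested genes.

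Log2 fold changes of Fasn were therefore imprecise. They were 0.66 (SE 0.67) for genotype at 7 weeks and 1.18 (SE 0.67) at 47 weeks, with adjusted p = 0.709 and 0.798. With age they were -1.39 (SE 0.67) in Tert+/+ and -0.87 (SE 0.67) in G3 Tert-/- mice, the lowest of any member in both, with adjusted p = 0.464 and 0.597. Acaca was 221 ± 165 in young and 105 ± 15.2 in old Tert+/+ kidneys, against 367 ± 388 and 229 ± 205 for G3 Tert-/-, with age effects of -0.84 (SE 0.50) and -0.53 (SE 0.50) (adjusted p = 0.580 and 0.687). Without Tert+/+ young replicate 5 the former was -0.47. Without G3 Tert-/- young replicate 3 the latter was -0.03, and with the adipocyte marker sum described next as a covariate it was -0.14.

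Several genes of the fatty acid branch were high in the mice whose kidneys held most adipocyte transcripts. The summed normalized count of 5 adipocyte markers (Adipoq, Plin1, Cidec, Lep and Fabp4), all in the table, was 162 to 2392 in young Tert+/+, 256 to 6316 in young G3 Tert-/-, 144 to 740.0 in old Tert+/+ and 219 to 2201 in old G3 Tert-/- kidneys. Adipoq, Plin1 and Lep were at 0 in at least 1 library, and Cidec fell to 0.978. Fabp4 ranged from 91.2 to 4558, against highest values of 789 for Adipoq, 569 for Plin1, 398 for Cidec and 26.0 for Lep. Fabp4 therefore weighs heavily in the sum, and how far the relations below rest on it alone was not tested. The highest sums, 6316, 2392 and 2201, came from G3 Tert-/- young replicate 3, Tert+/+ young replicate 5 and G3 Tert-/- old replicate 5. These are the 3 mice with the highest Fasn, and Ucp1, the uncoupling protein of brown fat, was 1542, 182 and 401 there, against at most 190.1 in the other 17 libraries.

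Across the 20 libraries, with each value centred on its group mean on the log2 scale, the correlation with the marker sum was 0.91 for Elovl6, 0.88 for Acaca, 0.87 for Fasn, 0.85 for Scd1 and 0.73 for Acly (Pearson's r). A smaller r was found for 99.9%, 99.8%, 99.8%, 99.7% and 99.4% of all tested genes, in the same order. Spearman's rho was 0.89, 0.82, 0.79, 0.78 and 0.56 in the same order. The permutation p of r, two-sided with 100000 resamples within groups and adjusted over the 33 members, was 0.000660, 0.000907, 0.000907, 0.000825 and 0.0166. Raw permutation p was 2.00e-05, 9.00e-05, 0.000110, 5.00e-05 and 0.00252 for r, and the adjusted permutation p of rho was 0.000660, 0.00214, 0.00627, 0.00627 and 0.112. Without the 2 libraries farthest from the median sum, r was 0.81, 0.76, 0.77, 0.70 and 0.46, so the relation of Acly rests in part on those libraries. This relation was looked for after the values were seen, and the labels give no batch within which to repeat it.

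**Figure D4:**
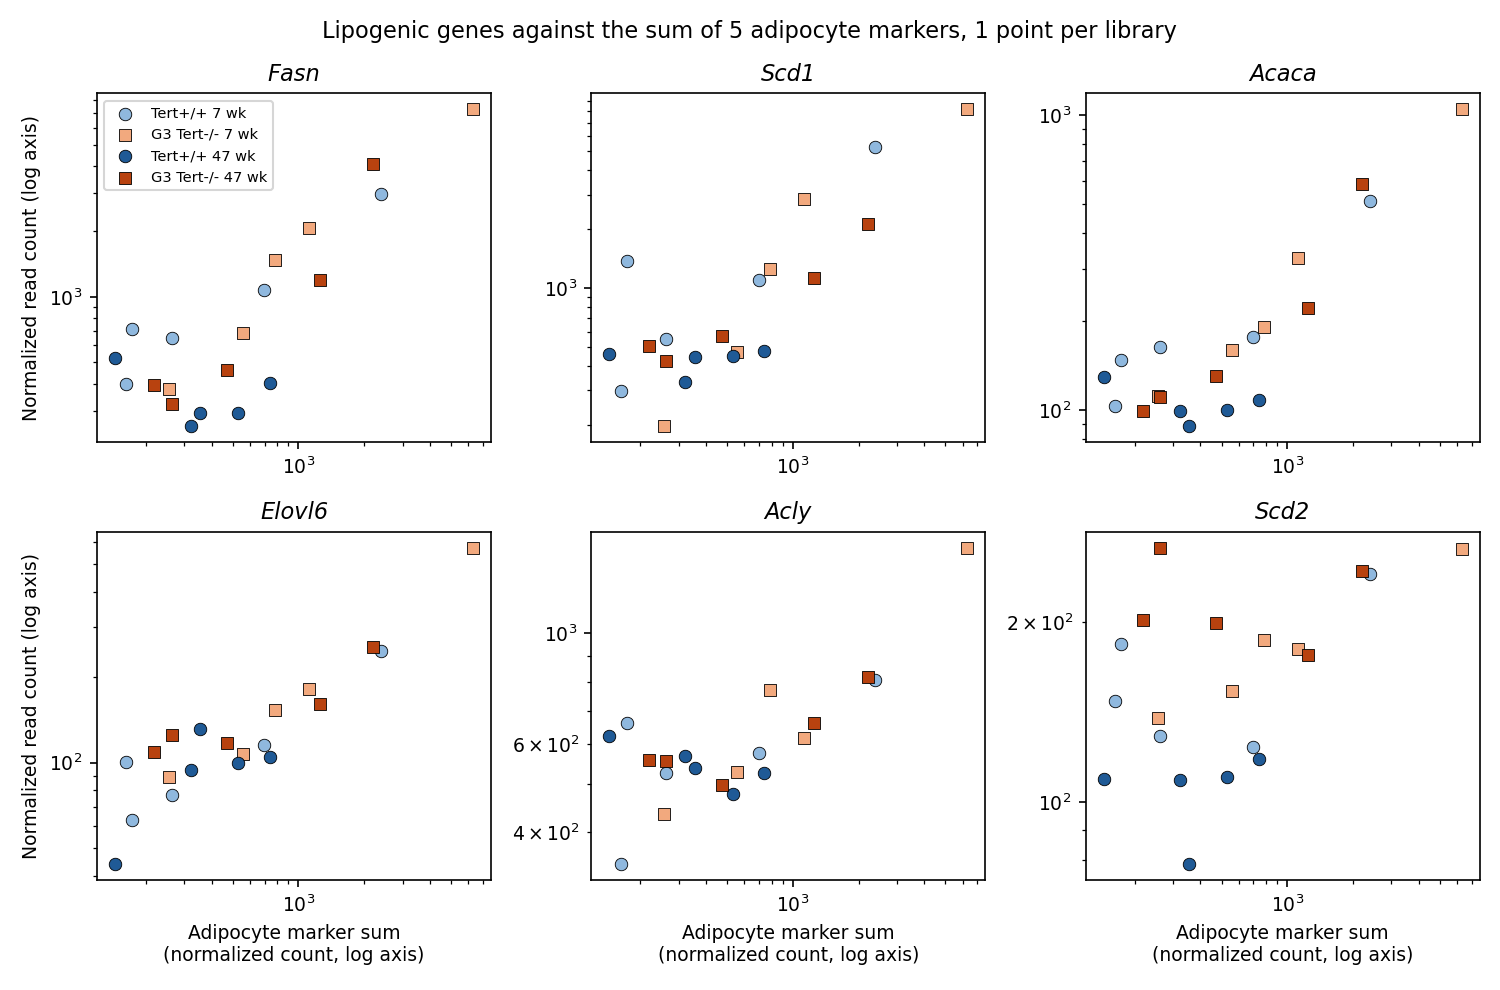
Normalized read count of 6 members (y axes, log scale) against the summed normalized count of 5 adipocyte markers (x axis, log scale), with 1 point per library coloured by group. Fasn, Scd1, Acaca and Elovl6 climb with the marker sum, while Scd2 reached 266 and 201 in 2 old G3 Tert-/- kidneys with sums of 262 and 219. In each other group, Scd2 was highest in the kidney with the highest sum.

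Among the 18 genes of the mevalonate and squalene steps, r was negative for 12 and positive for 6, from Sqle and Cyp51, the lowest and the only ones of the 18 under an adjusted p of 0.05, to Hmgcs1 at 0.52. Over all tested genes, 47.6% had an r below -0.006, the value of Ebp. A smaller r than that of Sqle was found for 0.718% of all tested genes, and for Cyp51 for 0.936%. Sqle had r = -0.64 (rho -0.43) and Cyp51 r = -0.62 (rho -0.61), with adjusted permutation p = 0.0302 and 0.0381 for r and 0.205 and 0.0701 for rho. Their raw p were 0.00549 and 0.00808 by permutation, and without the 2 farthest libraries r was -0.37 and -0.53, so the relation of Sqle rests in part on them. With the log2 marker sum as a covariate, the genotype value of Fasn at 7 weeks turned from 0.66 to -0.24, and at 47 weeks it was 0.65, while the age effect in Tert+/+ mice was -1.25 (adjusted p = 0.0941). In the same fit the fall of Cyp51 with age in G3 Tert-/- mice was -0.88 (adjusted p = 0.000308).

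Me1 was steadier. It was 2392, 2240.0, 2692, 1894 and 2728 in young and 1788, 1551, 1999, 1576 and 2024 in old G3 Tert-/- kidneys, where young replicate 4 alone lay within the range of the old mice (-0.41 on the log2 scale, SE 0.12, adjusted p = 0.0759). It passed without both libraries that stood apart (adjusted p = 0.0312), with DESeq2 (0.0309), and without Tert+/+ young replicate 1 (0.0387) or G3 Tert-/- young replicate 4 (0.0308). The left-out Tert+/+ libraries enter this comparison only through the spread shared by all 4 groups. In Tert+/+ mice Me1 was 2366 ± 389.8 in young and 2076 ± 123 in old kidneys (-0.17 on the log2 scale, SE 0.12, adjusted p = 0.647), and at 47 weeks its genotype value was -0.22 (SE 0.12), adjusted p = 0.787.

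Of the 6 desaturases and elongases, Scd2 passed, for genotype at 47 weeks. Scd1 (chromosome 19, 44394455 to 44407879, minus strand) and Scd2 (chromosome 19, 44293674 to 44306864, plus strand) encode close copies of the stearoyl-CoA desaturase, which makes monounsaturated from saturated fatty acids. Scd2 was 184, 129, 148, 124 and 241 in young Tert+/+ and 138, 154, 265, 187 and 180.1 in young G3 Tert-/- kidneys. The 47-week values were 109, 110.3, 78.9, 109 and 118 for Tert+/+ and 176, 266, 199, 201 and 243 for G3 Tert-/-. All 5 old Tert+/+ kidneys lay below every kidney of the other 3 groups, and old G3 Tert-/- kidneys overlapped young kidneys of both genotypes. The genotype value at 47 weeks was 1.04 (SE 0.18), adjusted p = 0.0172, against 0.17 (SE 0.18), adjusted p = 0.733, at 7 weeks. Because the difference at 47 weeks was known when the list was drawn up, this p-value is no independent test of it. With age the value was -0.62 (SE 0.18) in Tert+/+ mice, with the smallest adjusted p of any member there (0.156), and 0.25 (SE 0.18) in G3 Tert-/- mice (adjusted p = 0.567).

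The call for Scd2 passed in all 9 other settings that used every library or left out several by rule (adjusted p from 0.000242 to 0.0210), with log2 fold changes of 0.96 to 1.06. These settings reuse the libraries in which the difference was first seen, so they show only how far the call depends on the processing. It was lost without Tert+/+ old replicate 1 (adjusted p = 0.0551) or replicate 3 (0.0591), and without G3 Tert-/- old replicate 2 (0.0879), replicate 4 (0.0545) or replicate 5 (0.0573), where the log2 fold change stayed at 0.94 to 1.06. G3 Tert-/- old replicate 2, with the highest Scd2 of that group, had Adipoq at 2.05, Plin1 at 3.07, Cidec at 1.02 and Lep and Ucp1 at 0, while Fabp4, at 256, made up most of its marker sum of 262. The correlation of Scd2 with the marker sum was 0.51 (rho 0.34, adjusted permutation p = 0.120 and 0.313), and -0.01 without the 2 farthest libraries. In young Tert+/+, young G3 Tert-/- and old Tert+/+ kidneys, the highest Scd2 came from the mouse with the highest marker sum of its group. In old G3 Tert-/- kidneys replicate 5, with the highest sum, came next after replicate 2. With the marker sum as a covariate the genotype value at 47 weeks was 0.96 (adjusted p = 0.0133), and without the 3 libraries with the highest sums it was 0.99 (0.0100).

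Scd1 varied far more than its neighbour. It was 1374, 549, 298, 1105 and 5249 in young Tert+/+ and 198, 469.7, 8193, 1257 and 2865 in young G3 Tert-/- kidneys. Among old mice, those of Tert+/+ were 331, 448, 447, 461 and 476 and those of G3 Tert-/- 1131, 425, 571, 505 and 2129.8. In all 4 groups the highest value came from the mouse with the highest adipocyte sum of its group, and old Tert+/+ kidneys, where these sums were at most 740.0, ranged from 331 to 476. Genotype values of Scd1 were 0.21 (SE 0.75) at 7 weeks and 0.87 (SE 0.75) at 47 weeks, with adjusted p = 0.925 and 0.877. Age effects were -1.30 (SE 0.75) in Tert+/+ and -0.64 (SE 0.75) in G3 Tert-/- mice, with adjusted p = 0.558 and 0.750. Without Tert+/+ young replicate 5 the former was -0.72, and without G3 Tert-/- young replicate 3 the latter was 0.0412. Since the copies are similar, reads of one could be lost or counted for the other.

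Elovl6, which lengthens palmitate, stood at 121 ± 73.7 in young Tert+/+ mice and 221 ± 200.1 in young G3 Tert-/- mice (0.68 on the log2 scale, SE 0.41, adjusted p = 0.516), with 573 in G3 Tert-/- young replicate 3. The difference was 0.25 without that library and 0.12 with the adipocyte covariate. Elovl5, which lengthens polyunsaturated fatty acids, stood at 216 ± 59.1 in old Tert+/+ mice and 261 ± 47.0 in old G3 Tert-/- mice (0.32 on the log2 scale, SE 0.19, adjusted p = 0.819). Fads1 and Fads2, the desaturases of polyunsaturated fatty acids, lie near each other on chromosome 19. Fads2 had a genotype value of -0.43 (SE 0.23) at 7 weeks (adjusted p = 0.490) and an age effect of 0.18 (SE 0.23) in G3 Tert-/- mice (adjusted p = 0.780), at counts of 19 to 42.9. Fads1 ranged from 227 to 444, with log2 fold changes from -0.22 to 0.15.

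Genes around the pathway were taken from 2 further lists. Of 15 genes of SREBP processing and sterol handling, all tested, none passed for genotype at either age, with medians of -0.01 at 47 weeks and 0.07 at 7 weeks. With age 1 of 15 fell in each genotype, against 0.246% of all tested genes lower in Tert+/+ and 1.31% in G3 Tert-/- mice. This was Lpcat3, which puts polyunsaturated fatty acids into membrane phospholipids. Lpcat3 was 906, 904, 701, 857 and 779 in young and 591, 599, 639.7, 684 and 543 in old Tert+/+ kidneys. In G3 Tert-/- kidneys it was 774, 820.0, 689, 815 and 791 in young and 559.8, 647, 521, 640.3 and 591 in old mice. Old kidneys lay below young ones without overlap in both genotypes. The falls were -0.44 (SE 0.10) and -0.40 (SE 0.10), with adjusted p = 0.0315 and 0.0295. The call in Tert+/+ mice was lost without young replicate 1, 2 or 4 or old replicate 1, 2, 3 or 5 (adjusted p 0.0514 to 0.119). That in G3 Tert-/- mice was lost without young replicate 1, 2, 4 or 5 or old replicate 1, 3 or 5 (adjusted p 0.0519 to 0.0840).

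Of 19 other genes of fatty acid and triglyceride synthesis, all tested, none passed for genotype, 1 fell with age in Tert+/+ mice, against 0.246% of all tested genes, and 2 fell in G3 Tert-/- mice, against 1.31%. Elovl2, which makes very long polyunsaturated fatty acids, fell in both. It was 147, 216, 155, 151 and 149.8 in young and 93.3, 62.1, 73.0, 117 and 80.1 in old Tert+/+ kidneys. In G3 Tert-/- kidneys it was 186, 255, 187, 203 and 199 in young and 95.1, 100.3, 72.7, 94.0 and 63.7 in old mice. No old kidney reached the level of any young kidney of its genotype. The falls were -0.95 (SE 0.17) (adjusted p = 0.00349) and -1.28 (SE 0.17) (adjusted p = 5.58e-05), and both passed whichever library was left out. Dgat2, an acyltransferase of triglyceride synthesis, fell in G3 Tert-/- mice from 806 ± 196 to 534 ± 71.0 (-0.57 on the log2 scale, SE 0.14, adjusted p = 0.0288). That call was lost without young replicate 1, 3 or 4 or old replicate 2, 3 or 4 of G3 Tert-/- (adjusted p 0.0604 to 0.0848). The medians of this list with age were -0.15 in Tert+/+ and -0.24 in G3 Tert-/- mice. For genotype they were 0.21 at 7 weeks and 0.01 at 47 weeks. Thrsp, a lipogenic regulator picked out after its values were seen, had the highest genotype value of this list at 47 weeks, 1.28 (95% interval -0.89 to 3.45), without passing (adjusted p = 0.874).

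Seen library by library, the members did not move as 1 block. Tert+/+ young replicate 1 held the highest value of 7 members, among them Srebf2, Insig1, Pmvk and Fdps, and G3 Tert-/- young replicate 3 held that of 7 others, Hmgcs1, Acly, Acaca, Fasn, Scd1, Elovl5 and Elovl6. Tert+/+ old replicate 4 held the lowest value of 7 members. The median level of the mevalonate genes, centred per gene on the log2 scale, ranged from -0.42 in Tert+/+ old replicate 2 to 0.28 in G3 Tert-/- young replicate 4. For the fatty acid synthesis genes the same measure ranged from -0.77 in Tert+/+ young replicate 3 to 1.94 in G3 Tert-/- young replicate 3.

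**Figure D5:**
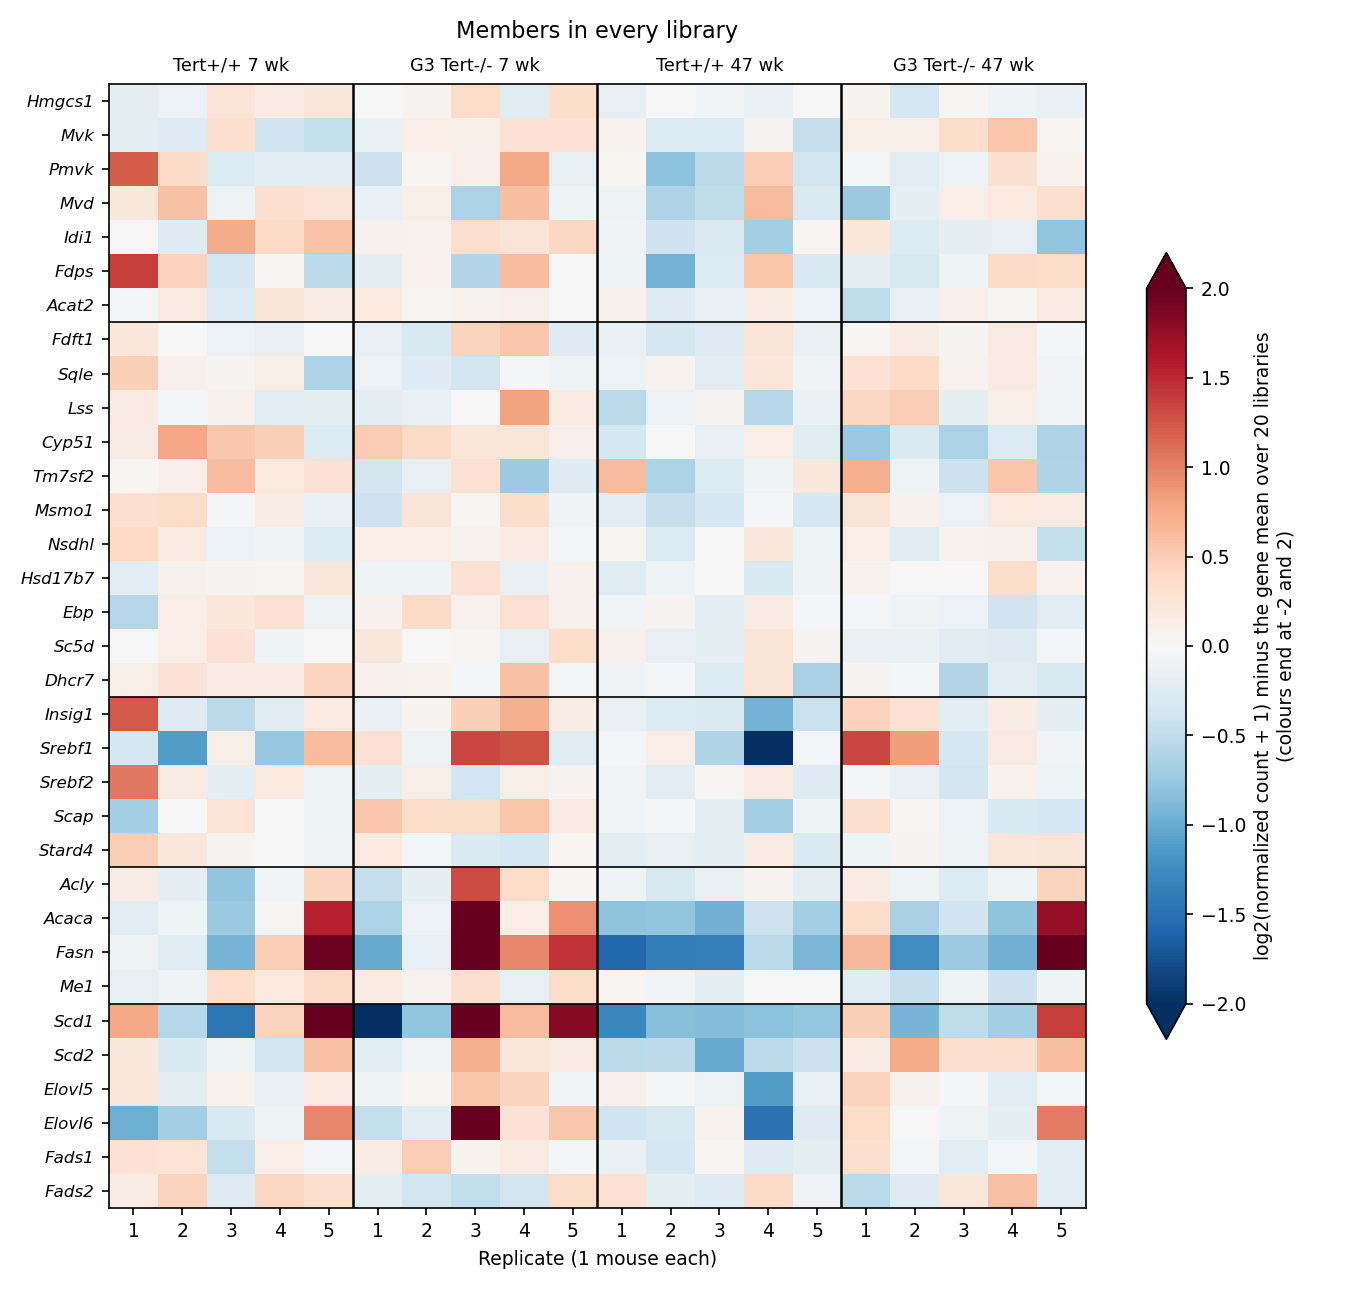
Log2(normalized count + 1) of each member minus its mean over 20 libraries, as colour (red higher, blue lower, ending at -2 and 2), with libraries in columns by group and genes in rows by role. Fasn and Acaca are highest of their groups in Tert+/+ young replicate 5, G3 Tert-/- young replicate 3 and G3 Tert-/- old replicate 5, with Fasn at 2959, 7279 and 4061 normalized counts there.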

How the data were processed

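The authors deposited 1 table of normalized read counts per gene and library, a signal in which each library's whole reads are divided by a size factor. The submitters' processing notes name DESeq2, HTSeq 0.6.1, TopHat2 2.0.10, FastQC 0.11.7, SAMtools 0.1.19 and Bowtie 1.0.0, with build GRCm38, but not their roles. All values were whole multiples of a library's step (tolerance 1e-06), so reads were recovered, 7161690 to 9757594 per library. In R 4.3.3, limma 3.58.1 (trend) was fitted to log2(normalized count + 1) for genes with at least 10 in at least 5 libraries, as 1 model of 4 group means, two-sided, with Benjamini-Hochberg adjustment over 14630 genes. Alternatives were edgeR 4.0.16 and DESeq2 1.42.0 on recovered reads, another pseudocount, filter, scaling or set of groups, and left-out libraries. The fits were tested on simulated data.

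Members and lists were chosen with earlier results of these data known. Named were members that passed, Srebf1, Srebf2, Scap and Insig1, and the 4 highest and lowest members per genotype or age comparison; other members were picked after their values were seen. Replicate numbers follow the order of the samples, and no batch, day or litter is labelled, so none could enter the fits. In the main fit, p-values measure the spread between mice within groups, pooled over all 4 groups of 5 mice and drawn towards a trend over genes. Precision is limited at low counts. A level of 3 reads, or 2.49 to 3.38 normalized counts, was chosen to mark this, and some values lay below it. Marker lists of other cell types that the text does not name are not reported here.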

Additional observations from a re-analysis of the deposited data

Results flagged for a closer look

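Of 132 sets of 5 libraries (33 members in 4 groups), 20 had 1 library farther from the rest than Dixon's 95% limit allows, in 14 members, where chance gives about 1 in 20. Values are normalized counts. In Tert+/+ young replicate 5, Acaca (512), Fasn (2959), Scd1 (5249) and Elovl6 (247) were far above the group. In G3 Tert-/- young replicate 3 the same held for Acaca (1046), Fasn (7279) and Elovl6 (573), and in G3 Tert-/- old replicate 5 for Acaca (585) and Fasn (4061). These are the 3 libraries with the highest adipocyte marker sums. In Tert+/+ young replicate 1, Insig1 (187) and Srebf2 (631) were high. In Tert+/+ old replicate 4, Stard4 (423) was high and Scap (171) and Elovl5 (114) were low.

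Single genes stood out in other libraries. Lss (77.2) and Dhcr7 (92.2) were high in G3 Tert-/- young replicate 4, Fads2 (36.4) in G3 Tert-/- young replicate 5, and Hsd17b7 (208) in G3 Tert-/- old replicate 4. Scd1 was low in Tert+/+ old replicate 1 (331), and Scd2 in Tert+/+ old replicate 3 (78.9).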

How the results depend on the processing

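Outside the fits that leave out 1 library, 595 of 615 values for single genes and 42 of 44 counts kept their direction and their side of the threshold. The count of members lower with age in G3 Tert-/- mice was 2 with DESeq2 and 4 without both libraries that stood apart, against 1. Both of those libraries are Tert+/+ and enter this comparison only through the spread shared by all 4 groups. Without them the median of the members stayed at -0.15. The cause of the change with DESeq2 was not tested. The covariate and the fits without the 3 libraries highest in adipocyte markers were chosen after seeing the data. Without both libraries that stood apart, the sign turned for Srebf2 at 47 weeks (0.0131), Srebf1 (0.148) and Mvk (-0.0283) with age in Tert+/+ mice, and Srebf1 (-0.27) and Insig1 (-0.0731) in the interaction. With the adipocyte covariate it turned for Srebf2 at 47 weeks (0.0103), Cyp51 (0.0955) and Fasn (-0.24) at 7 weeks, and Srebf1 with age in G3 Tert-/- mice (0.0437). Without the 3 libraries it turned for Mvk with age in Tert+/+ (-0.0441) and Srebf1 with age in G3 Tert-/- mice (0.19). None of these values passed. Lpcat3 lost its call in Tert+/+ mice with only the groups compared (adjusted p = 0.152, limma) and, in both genotypes, without the 3 libraries (0.0615 and 0.0600), and Dgat2 lost its call in these settings too (0.0552 and 0.0664).

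Leaving out 1 library in turn, 1333 of 1380 gene values and 92 of 100 counts were kept. Members called ranged from 0 to 1 for genotype at 47 weeks and for age in Tert+/+ mice, and from 1 to 2 for age in G3 Tert-/- mice. Signs turned within these ranges: Srebf2 at 47 weeks -0.0910 to 0.0189, Cyp51 at 7 weeks -0.19 to 0.0719, and in the interaction Srebf1 -0.29 to 0.40. With age in Tert+/+ mice they were Srebf1 -0.52 to 0.16, Scap -0.25 to 0.0121 and Mvk -0.0441 to 0.15. In G3 Tert-/- mice they were Srebf1 -0.36 to 0.0797, Srebf2 -0.13 to 0.0122 and Scd1 -1.30 to 0.0412. No paired analysis was possible because the labels give no replicate numbers that tie mice of different groups. Depth limits Srebf1, Tm7sf2 and Fads2, which had the fewest reads of the members.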
